A study of Mus musculus with 4 samples.

Results

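The Cyp2c family is the large group of cytochrome P450 genes that lies together on mouse chromosome 19. The members were the 10 Cyp2c genes Cyp2c29, Cyp2c37, Cyp2c38, Cyp2c39, Cyp2c40, Cyp2c44, Cyp2c50, Cyp2c54, Cyp2c55 and Cyp2c70, taken as every probe set whose deposited gene name was one of these. They were read by 11 of the 45037 probe sets tested, or 10 of 19504 named genes. The members were listed with the KO and WT values already known, so their values are a description and carry no test. Livers of male mice 6 weeks old were measured on Affymetrix MOE430 v2 arrays, with 2 arrays of WT and 2 of Tm7sf2-KO mice, both of the C57Bl/6 strain. Tm7sf2 encodes a sterol reductase found in the endoplasmic reticulum and in the nuclear envelope, and its knockout was backcrossed to C57/B6, as the labels write it. The labels speak of hybridization in duplicate without saying whether the duplicates came from separate animals, so every p-value rests on a spread that may be technical.

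Cytochrome P450 enzymes of the 2C group sit in the endoplasmic reticulum of hepatocytes, receive electrons from the reductase Por, and oxidise drugs, steroids and fatty acids. Several convert arachidonic acid to epoxides or hydroxylated products, which act as local lipid signals. In liver, many of the genes are driven by HNF4A and induced through the nuclear receptors CAR and PXR, and several differ between the sexes under the control of pulsatile growth hormone. Mice carry many more Cyp2c genes than humans, and the copies are close in sequence.

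Expression within the family went both ways. Cyp2c37 was 5.71-fold and Cyp2c55 2.66-fold lower in KO liver, while Cyp2c39 was 2.76-fold and Cyp2c38 1.91-fold higher. Cyp2c54 was 1.56-fold higher and Cyp2c40 1.49-fold lower. Cyp2c29, Cyp2c44, Cyp2c50 and Cyp2c70 differed less, by 1.07-fold to 1.21-fold at the brightest probe set of each. All values below are log2 expression, each change is KO minus WT with the standard error (SE) of the limma fit, and means carry the SD over their 2 arrays.

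A probe set was counted as past both thresholds when the limma p-value, adjusted over all probe sets by the Benjamini-Hochberg procedure, was under 0.05 and the log2 change was at least 0.5 in size (1.41-fold). Of the 11 Cyp2c probe sets, 3 lay past both thresholds upwards and 3 downwards, and 5 did not. Over all probe sets 0.706% lay past both, 0.38% upwards and 0.326% downwards, but the members were chosen from the same comparison and nothing is read from their count. Counted as genes at the brightest probe set, 3 of 10 were higher and 3 lower, beside 1.03% of all named genes (0.543% higher and 0.487% lower). With the adjusted p-value alone 4 Cyp2c probe sets were lower and 3 higher, beside 1.25% of all probe sets and 1.75% of all genes. The median change over the 10 genes was -0.05, and that over all genes was 0.01. With any 1 array left out, 1 genotype had a lone array without a spread of its own, so only the changes were read. Cyp2c37 then ran from -2.65 to -2.37 and Cyp2c39 from 1.31 to 1.61, and every Cyp2c probe set kept its direction.

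**Figure D1:**
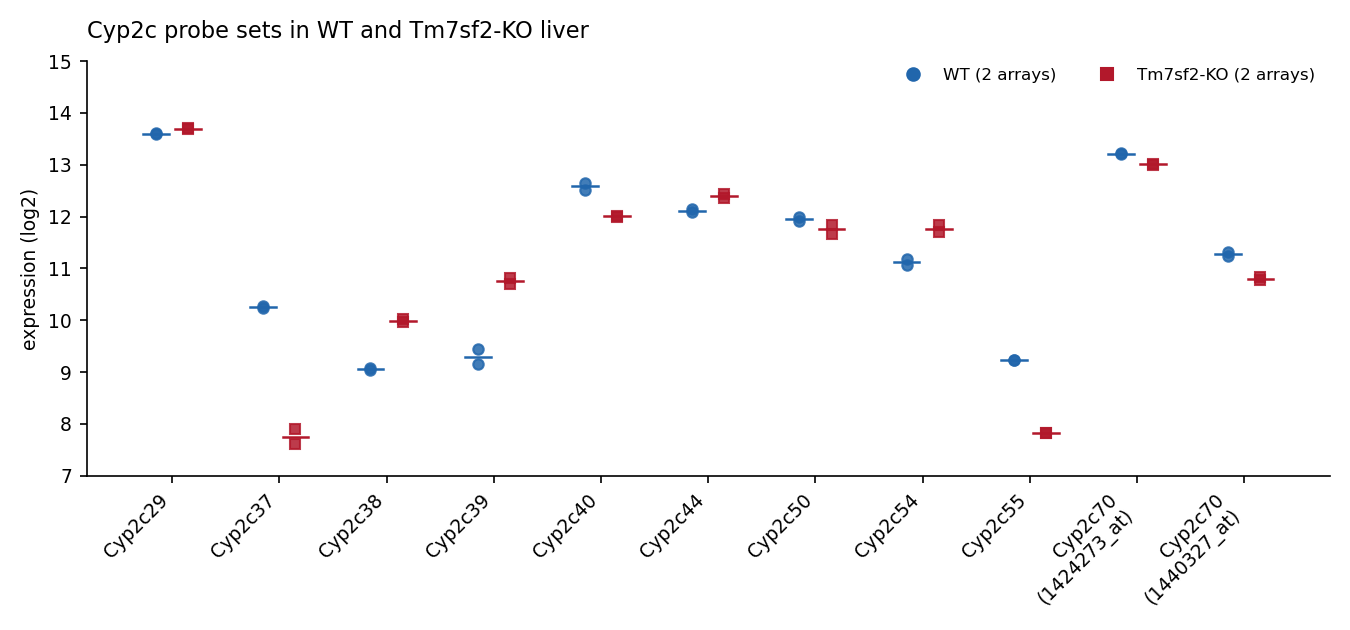
Log2 expression of each Cyp2c probe set on every array, with WT arrays as circles, Tm7sf2-KO arrays as squares and group means as bars (heights of different probe sets are not comparable). Cyp2c37 and Cyp2c55 sat well below their WT arrays in KO and Cyp2c38 and Cyp2c39 well above, while centring on added control transcripts would set all KO values 0.39 lower and put Cyp2c29 and Cyp2c44 below WT.

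The KO arrays stood apart from the WT arrays in some technical measures. The hybridization controls, bacterial and phage transcripts added in fixed amounts at hybridization, read 10.01 in WT and 10.40 in KO. The poly-A controls were higher in KO by 0.35. The excess of 3′ over 5′ signal was larger in KO by 0.18 for Actb and by 0.12 for Gapdh. The part of these differences in the Cyp2c values was not tested. The replicate arrays were close, with a median gap between replicates over all probe sets of 0.08 in WT and 0.09 in KO. At the Cyp2c probe sets it was 0.04 in WT and 0.07 in KO. Tm7sf2 itself read 10.26 in WT and 7.51 in KO at probe set 1460684_at, and 7.48 and 7.52 at 1454825_at, so the first followed the labels. The sources used here do not place either probe set against the disrupted stretch of the gene.

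Among the enzymes that hydroxylate arachidonic acid, Cyp2c37 carried the largest change of the family. Its probe set, 1419094_at, read 10.28 and 10.24 in the WT arrays and 7.89 and 7.61 in the KO arrays. The groups were far apart, and the KO arrays differed from each other more than the WT arrays did. The means were 10.26 ± 0.03 in WT and 7.75 ± 0.20 in KO (SD, n = 2 each), a change of -2.51 (SE 0.10), so that KO liver held 17.5% of the WT signal. By size this was rank 2 among all falls, after Tm7sf2. The gap of 0.28 between the KO arrays lay near the 95th percentile of such gaps over all probe sets, which was also 0.28.

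Cyp2c55, which hydroxylates arachidonic acid and is best known from the intestine, was lower as well. Probe set 1419582_at read 9.24 and 9.23 in WT and 7.82 and 7.83 in KO, a change of -1.41 (SE 0.08) and rank 7 among the falls. Both pairs of replicates nearly coincided, so the difference was many times the spread within a genotype. Cyp2c40, a hydroxylase of arachidonic acid that is higher in females, read 12.65 and 12.52 in WT and 12.00 and 12.01 in KO at 1423244_at. The change was -0.58 (SE 0.08), a smaller difference, close to the fold threshold, with no overlap between the groups.

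The epoxygenases Cyp2c38 and Cyp2c39, which turn arachidonic acid into epoxides and lie next to each other among the measured genes, were both higher in KO. Cyp2c39 read 9.45 and 9.15 in WT and 10.81 and 10.70 in KO at 1421363_at. The WT arrays were spread by 0.30, more than at any other member, yet both KO arrays lay well above them. The means were 9.30 ± 0.21 and 10.76 ± 0.08 (SD, n = 2 each), a change of 1.46 (SE 0.11), rank 7 among all rises. Cyp2c38 read 9.07 and 9.04 in WT and 9.96 and 10.02 in KO at 1452501_at, a change of 0.93 (SE 0.08) and rank 21. Here the replicates of each genotype were close and the groups lay clearly apart.

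Cyp2c54, an oxygenase of arachidonic and linoleic acid, was the third member past both thresholds upwards. Probe set 1455457_at read 11.19 and 11.07 in WT and 11.84 and 11.70 in KO, a change of 0.64 (SE 0.09). With the arrays centred on the hybridization controls the change was 0.26 and no longer past the thresholds. Cyp2c50, whose enzyme acts on the same fatty acids, read 11.91 and 12.00 in WT and 11.84 and 11.67 in KO at 1418653_at. Both KO arrays were lower, but the difference of -0.20 (SE 0.09) was not much larger than the gap of 0.17 between the KO arrays. Cyp2c54 and Cyp2c50 are neighbours on the chromosome, and both KO arrays lay above WT for the first and below WT for the second.

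Of the remaining members, Cyp2c29 is an abundant liver epoxygenase and a standard marker of CAR activation. It read 13.61 and 13.59 in WT and 13.71 and 13.69 in KO at 1417651_at, a change of 0.10 (SE 0.08), which became -0.28 when arrays were centred on the hybridization controls. Cyp2c44, an epoxygenase of kidney and liver that RefSeq lists as Cyp2c23, read 12.14 and 12.10 in WT and 12.36 and 12.43 in KO. Its change of 0.28 (SE 0.08) became -0.11 with the same centring, so neither gene has a settled direction. The Cyp2c44 probe set, 1424576_s_at, was the 1 member probe set whose suffix marks probes that may read several transcripts.

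Cyp2c70 makes the muricholic acids, bile acids typical of mice, and it was the 1 member with more than 1 probe set. The brighter one, 1424273_at, read 13.23 and 13.20 in WT and 13.00 and 13.01 in KO, a change of -0.21 (SE 0.08). The other, 1440327_at, read 11.24 and 11.31 in WT and 10.83 and 10.77 in KO, a change of -0.47 (SE 0.08), past the adjusted p-value alone. Both were lower in KO on each array, by different amounts, and neither passed the fold threshold.

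At all 11 member probe sets the KO arrays lay on one side of the WT arrays, 5 above and 6 below. With 2 arrays against 2 this held for 41.1% of all probe sets and 43.9% of all genes, so the separation alone says little. Cross-hybridization between the close Cyp2c copies was not tested. 1 further family gene carried a name in the table: Cyp2c65 read 6.21 and 6.18 in WT and 6.14 and 6.06 in KO (change -0.09, SE 0.08, limma adjusted p = 0.694), at 1429994_s_at, another suffix-marked probe set. These levels were dim, under the array medians of 6.66 to 6.67.

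RefSeq places 19 Cyp2c genes on chromosome 19 (assembly GRCm38.p6), of which 15 are protein coding and 4 are pseudogenes. All 10 members were matched to it by gene ID. In chromosomal order the measured genes run Cyp2c55, Cyp2c65, Cyp2c29, Cyp2c39, Cyp2c38, Cyp2c40, Cyp2c37, Cyp2c54, Cyp2c50 and Cyp2c70, and Cyp2c44 lies apart from them. Higher and lower genes alternated along the cluster rather than forming 1 block: Cyp2c55 at one end was lower, Cyp2c39 and Cyp2c38 were higher, Cyp2c40 and Cyp2c37 lower, and Cyp2c54 higher again. The largest fall, Cyp2c37, and the rise of Cyp2c54 were in adjacent genes. Centring on the hybridization controls kept these 6 directions. Tm7sf2, the disrupted gene, is annotated to chromosome 19 as well. Whether sequence linked to it differed between the genotypes at the Cyp2c genes was not tested.

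Genes beside the cluster, none of which is a P450, did not pass the thresholds. The 5 measured genes on each side had log2 changes of -0.20 to 0.14 with a median of -0.01. By limma 0 of these 10 lay past both thresholds and 0 had an unadjusted p under 0.05. Of the 10 genes beside Cyp2c44, 0 passed both and 3 had an unadjusted p under 0.05, with changes of -0.31 to 0.31. Over all 45037 probe sets, 5872 had an unadjusted limma p under 0.05.

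**Figure D2:**
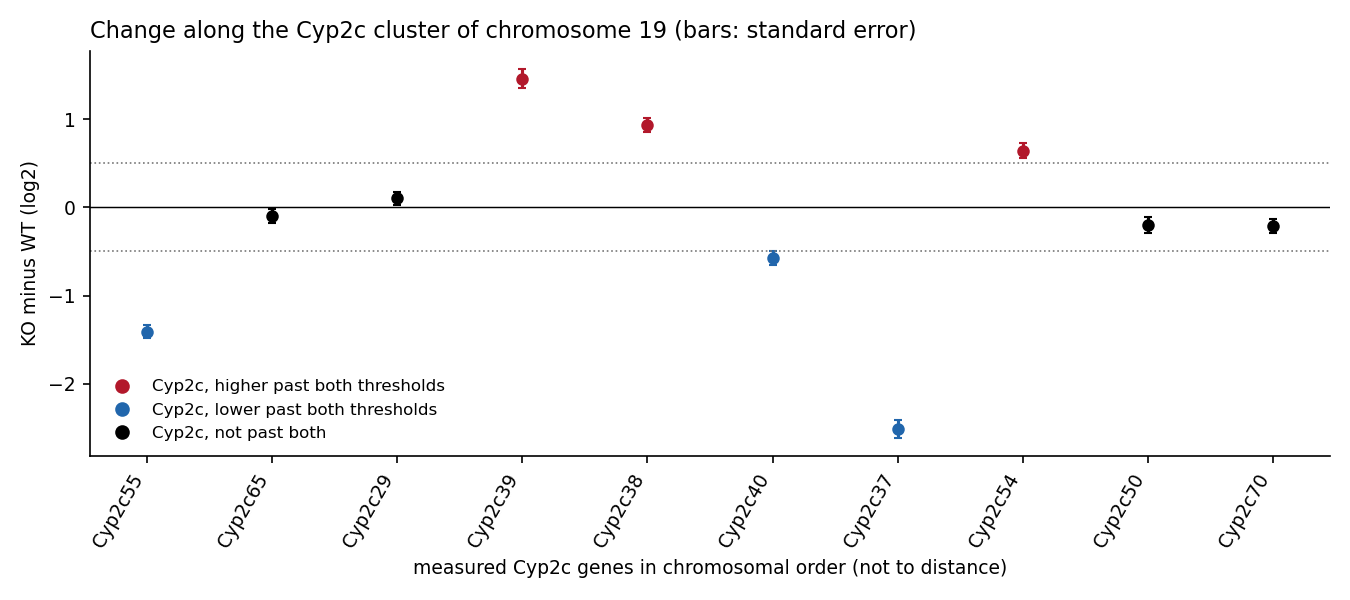
Log2 change, KO minus WT, of the measured Cyp2c genes along the cluster, in chromosomal order, with bars for 1 SE of the limma fit and dotted lines at the threshold of 0.5. Changes of Cyp2c genes ran from -2.51 (Cyp2c37) to 1.46 (Cyp2c39), with higher and lower genes interspersed, and centring on hybridization controls moved every point down by 0.39, Cyp2c29 to below 0.

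The upstream sequences of Cyp2c37 and Cyp2c50, which lie close together with Cyp2c54 between them and had unlike changes, are shown to let the close copies be compared. RefSeq holds a promoter for 8 of the 10 members, with 9 start sites, since Cyp2c39 has 2. There was an entry for neither Cyp2c44 nor Cyp2c54. Each sequence is the 250 bases before the start site, 5′ to 3′ on the gene's own strand (GRCm38.p6), and capitals mark the letters CAAAGTC. The region of Cyp2c37 is chr19:39992174-39992423 on the + strand and that of Cyp2c50 is chr19:40089429-40089678 on the + strand.
Cyp2c37: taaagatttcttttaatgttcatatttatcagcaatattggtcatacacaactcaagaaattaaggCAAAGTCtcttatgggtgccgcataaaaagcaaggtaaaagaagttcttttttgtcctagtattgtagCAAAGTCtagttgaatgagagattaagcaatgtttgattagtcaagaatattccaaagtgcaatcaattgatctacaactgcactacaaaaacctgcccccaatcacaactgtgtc
Cyp2c50: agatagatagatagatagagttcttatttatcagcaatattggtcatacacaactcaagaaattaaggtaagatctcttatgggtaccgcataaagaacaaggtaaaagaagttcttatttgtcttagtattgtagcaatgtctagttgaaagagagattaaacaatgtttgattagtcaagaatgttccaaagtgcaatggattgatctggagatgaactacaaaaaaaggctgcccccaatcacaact

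These sequences were identical at 214 of 248 aligned columns (86.3%), the closest pair of different members. The change was -2.51 at the Cyp2c37 probe set and -0.20 at the Cyp2c50 probe set. CAAAGTC, which resembles the core of sites bound by HNF4A, stood in Cyp2c37 at 184 and at 116 bases before the start. The motif was picked after the sequences had been seen. With positions counted from 1 at the 5′ end of the motif and the Cyp2c37 base first, Cyp2c50 differed by C1T, A4G and G5A at the first place and by A4T at the second.

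The epoxygenase genes that were higher in KO, Cyp2c38 and Cyp2c39, are shown beside Cyp2c29, the epoxygenase nearest to them in upstream sequence, whose change was 0.10. Their regions are chr19:39463076-39463325 on the - strand for Cyp2c38, chr19:39347096-39347345 on the + strand for the first Cyp2c39 start, and chr19:39286835-39287084 on the + strand for Cyp2c29. The second Cyp2c39 start, not printed, is at chr19:39510572-39510821 on the + strand, so the Cyp2c38 start lies between the 2.
Cyp2c38: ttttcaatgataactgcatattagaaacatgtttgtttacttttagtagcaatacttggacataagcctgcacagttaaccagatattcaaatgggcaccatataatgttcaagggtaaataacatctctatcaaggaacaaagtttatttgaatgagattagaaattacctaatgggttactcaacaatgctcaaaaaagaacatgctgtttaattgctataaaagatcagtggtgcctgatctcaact
Cyp2c39: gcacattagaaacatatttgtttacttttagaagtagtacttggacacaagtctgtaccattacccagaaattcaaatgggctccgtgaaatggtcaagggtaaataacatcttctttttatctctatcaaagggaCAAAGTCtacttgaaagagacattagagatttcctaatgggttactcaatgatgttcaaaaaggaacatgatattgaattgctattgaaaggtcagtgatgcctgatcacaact
Cyp2c29: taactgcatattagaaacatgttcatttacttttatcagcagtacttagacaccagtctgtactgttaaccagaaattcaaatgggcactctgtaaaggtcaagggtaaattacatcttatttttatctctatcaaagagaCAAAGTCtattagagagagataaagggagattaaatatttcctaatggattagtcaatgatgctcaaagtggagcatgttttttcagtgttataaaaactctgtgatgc

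Cyp2c38 and Cyp2c39 were identical at 80.4% of aligned columns at the first Cyp2c39 start and at 83.2% at the second. Cyp2c29 matched Cyp2c39 at 79.3% and 79.5%, and Cyp2c38 at 74.8%. Over all 35 pairs of starts of different members the median was 60.1% and the lowest 52.9%. Upstream likeness joined members with like changes (Cyp2c38 and Cyp2c39, 0.93 and 1.46) and members with unlike changes (Cyp2c37 and Cyp2c50, or Cyp2c29 at 0.10 and Cyp2c39).

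**Figure D3:**
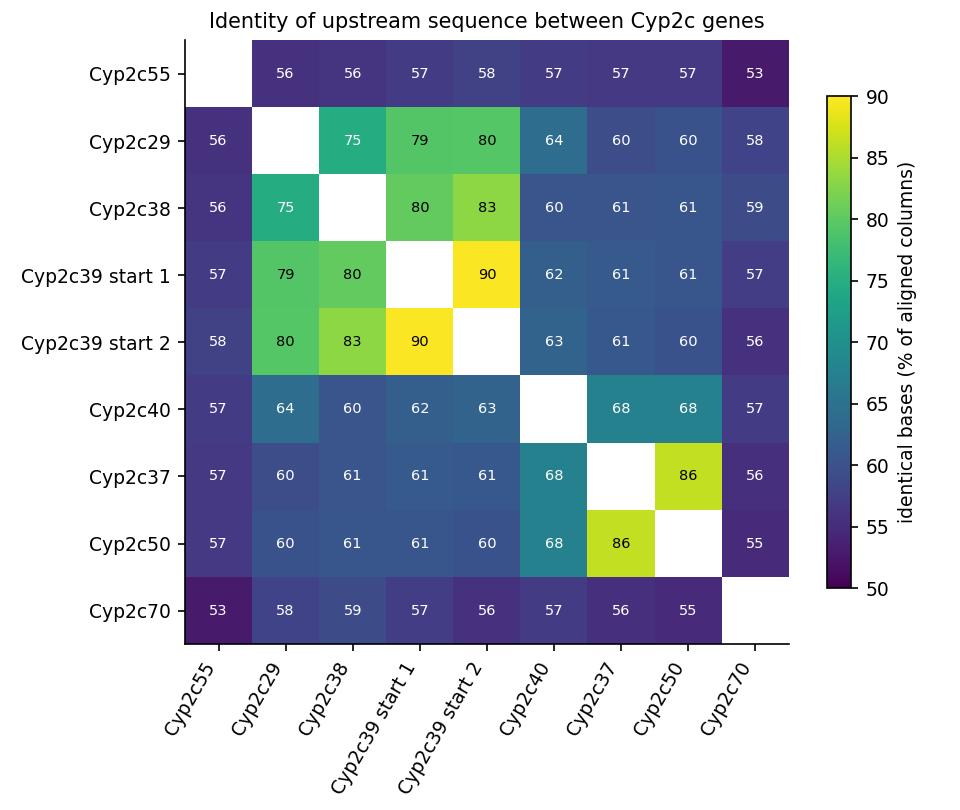
Percent of aligned columns with identical bases, in colour and digits, between the 250 bases upstream of 9 Cyp2c start sites in 8 genes. Aligned columns ran from 88 (Cyp2c38 with Cyp2c70) to 279 (Cyp2c50 with Cyp2c55), so cells rest on unlike lengths. The bright cells are Cyp2c37 with Cyp2c50 (86.3%) and the group of Cyp2c29, Cyp2c38 and Cyp2c39, and Cyp2c55 and Cyp2c70 stand apart from the others.

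CAAAGTC, picked after these sequences had been seen, was searched on both strands. It was found upstream of 5 of 8 members (Cyp2c29, Cyp2c37, Cyp2c39, Cyp2c40 and Cyp2c70), and in 3.84% of 32851 RefSeq promoters over the same 250 bases. Nothing is read from the difference, since the motif came from these members and several are close copies. These 5 genes had changes from -2.51 to 1.46, so the letters were shared by genes that moved in opposite directions. The STAT5-type motif TTCNNNGAA was in 0 of 9 member sequences and in 7.02% of all promoters. The letters TTATGTAA and TTACGTAA of DBP-type and related sites were also in 0 of 9, beside 0.819% and 0.113% of promoters. The nuclear receptor half-sites AGGTCA and AGTTCA were each found in 3 members, beside 14.0% and 11.8%, and TATAAA in 4 (12.4%). A match is only a match of letters, and its absence says only that these letters are not in the window.

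Genes that serve or control the Cyp2c enzymes were taken as lists, each gene at its brightest probe set, with limma p-values adjusted over all probe sets and the 1.03% of all genes past both thresholds as background. The background for an unadjusted p under 0.05 is 5872 of 45037 probe sets. Of 9 electron donors of P450s and epoxide hydrolases, 0 passed (1 with an unadjusted p under 0.05). Ephx2, the soluble hydrolase that breaks down the epoxides, had a change of 0.22 (SE 0.08, adjusted p = 0.269) and Pgrmc1, a heme-binding partner of P450s, by 0.10 (adjusted p = 0.682), and both values turned negative on control-centred arrays (-0.16 and -0.29). The change of Por, mentioned for its role and outside the naming rule, was 0.02.

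Of 18 other genes listed as arachidonic acid oxygenases, 2 rose and none fell (2 higher and 3 lower on control-centred arrays), and 4 had an unadjusted p under 0.05. Both were fatty acid hydroxylases of the Cyp4a group, which acts at the end of the chain: Cyp4a14 read 9.38 and 9.35 in WT and 11.19 and 11.13 in KO (change 1.80, SE 0.08, adjusted p = 1.23e-05). Cyp4a10 read 10.95 and 10.98 in WT and 12.23 and 12.42 in KO (change 1.36, adjusted p = 1.64e-04) at a suffix-marked probe set. These rises were as large as that of Cyp2c39 or near it. The remaining 16 genes, among them lipoxygenases, cyclooxygenases and the Cyp2j epoxygenases, did not pass. These 16 include Pla2g4a and Ltc4s, which handle arachidonic acid or its products but are not oxygenases.

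Among 19 transcription factors that act on Cyp2c genes, 3 rose and none fell, and 10 had an unadjusted p under 0.05 in either direction. On control-centred arrays 1 was higher and 4 lower, and with the probe sets of each gene averaged only Ppara passed. Ppargc1a, the coactivator of fasting metabolism, changed by 0.89 (adjusted p = 0.00184) at its brightest probe set and by 0.15 to 0.29 at its 4 others, with a mean of 0.37. Ppara, the fatty acid receptor that drives Cyp4a genes, changed by 0.62 (adjusted p = 0.00962). Ahr, the dioxin receptor, changed by 0.52 (adjusted p = 0.0335) and by -0.00 at its other probe set, and it did not pass in the fit that blocked on replicate number. The drug sensors, chosen for mention after their values were seen, were Nr1i2 (PXR), with 0.43 (adjusted p = 0.0492), under the fold threshold, and Nr1i3 (CAR), with 0.41 (adjusted p = 0.118). Lower values, also named after they were seen, were those of Foxa2 (-0.35, adjusted p = 0.125) and Cebpb (-0.34, adjusted p = 0.0918). Hnf4a gave -0.13 (adjusted p = 0.592), and -0.24 to -0.21 at its 3 other probe sets. Both KO arrays lay above both WT arrays for 10 of the 19 factors and below them for 4. Several of these genes and of those named next were already known to be changed on these arrays, so their calls are no independent evidence.

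Of 8 factors of the growth hormone axis that sets sex-biased P450 levels, 4 had an unadjusted p under 0.05. Of these 8, Bcl6, a repressor with higher expression in males, rose by 1.09 (adjusted p = 3.09e-04), against 0.15 at its other probe set. Cish, an inhibitor induced by growth hormone and mentioned after its value was seen, had a change of -0.47 and passed the adjusted p-value alone (0.0259). Of 16 other CAR and PXR targets, 1 rose and 1 fell, and 4 had an unadjusted p under 0.05. Cyp2b9 changed by 0.54 (adjusted p = 0.0129), and Alas1, the rate-limiting enzyme of heme synthesis, by -0.79 (adjusted p = 0.00199). Cyp2b9 was dim, with 6.48 and 6.47 in WT, under the array medians of 6.66 to 6.67, and 6.99 and 7.03 in KO. Cyp2b10 (0.15) and Cyp3a11 (0.04), the best known inducible genes of this list and named outside the rule, did not pass.

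Of 7 P450s of cholesterol and bile acids, 1 rose and 1 fell, and 4 had an unadjusted p under 0.05. Cyp7b1, which hydroxylates oxysterols, changed by -0.96 (adjusted p = 5.06e-04), with -0.88 at its other probe set, also called. Cyp7a1, the first and slowest step from cholesterol to bile acids, rose by 0.50 (adjusted p = 0.0200), just past the fold threshold, and did not pass after a second quantile normalization (0.48) or with its probe sets averaged (0.40). On control-centred arrays Ppara (0.23), Ahr (0.13), Cyp2b9 (0.15) and Cyp7a1 (0.12) no longer passed.

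**Figure D4:**
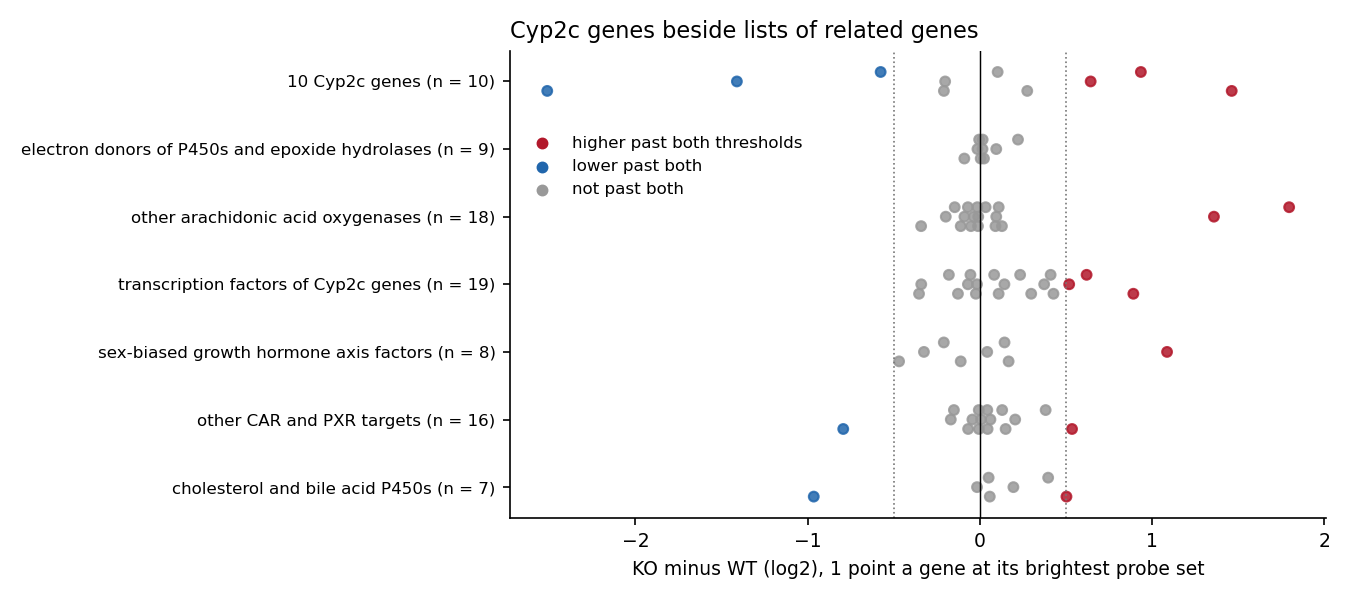
Log2 change, KO minus WT, of 10 Cyp2c genes and of 6 lists of related genes, 1 point a gene at its brightest probe set, with dotted lines at 0.5 in either direction. The Cyp2c row runs from -2.51 to 1.46 and holds 3 rises and 3 falls, while the electron donors and epoxide hydrolases hold none. With arrays centred on hybridization controls all points would lie 0.39 lower. This turns every point between 0 and 0.39 negative, among them Ephx2, Pgrmc1, Cyp2c29 and Cyp2c44.

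The likeness of other genes was measured as the Euclidean distance of centred log2 values over the 4 arrays, among 19493 named genes outside the Cyp2c family (the members and Cyp2c65). Nearest to Cyp2c37 were Tm7sf2 (distance 0.352, change -2.75), Serpina4-ps1 (0.537, change -2.07) and Gm37416 (1.25, change -1.28). Nearest to Cyp2c39 were Sugct (0.153, change 1.43), Rgs16 (0.274, change 1.29) and Sdc4 (0.321, change 1.62). With 4 arrays such likeness mostly reflects a change of like size, and says nothing of shared function.

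The tissue fitted its label, since hepatocyte genes such as Alb were at the top of the scale (14.68 and 14.72 in WT, 14.76 and 14.70 in KO). Of 9 hepatocyte markers 0 passed both limma thresholds (1 with an unadjusted p under 0.05), and their summed linear signal ran from 169478 to 172422 in WT and from 170411 to 172267 in KO. Because several Cyp2c enzymes are zoned towards the central vein, pericentral markers were set beside them: 2 of 9 rose at their brightest probe set, and the median change was 0.09. All 9 are named here, and 3 had an unadjusted limma p under 0.05, beside 5872 of 45037 probe sets. Slc1a2 gave 0.78 (0.18 to 0.41 at its 2 other probe sets) and Tbx3 0.60 (-0.02 to 0.51 at its 2 others), and neither passed on control-centred arrays (0.39 and 0.22) or with probe sets averaged. Glul, which defines the cells at the vein, gave -0.17, Gulo -0.10 and Cyp2e1 0.03. Axin2 gave 0.07, Cyp1a2 0.09, Lgr5 0.15 and Oat 0.26, and these 7 markers did not pass. The summed signal of the list was 30504 to 30934 in WT and 31690 to 32714 in KO, and the part of this in the Cyp2c values was not tested. In bulk liver, fewer cells of a type and less RNA per cell cannot be told apart.

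For Cyp2c55 and Cyp2c44, which are also made in intestine and kidney, markers of those organs were read too. Of 5 intestinal markers 0 passed both thresholds (1 with an unadjusted p under 0.05). Apoa4, which liver also makes, passed the adjusted p-value alone (0.42, adjusted p = 0.0406) at its brightest probe set and both thresholds at its other (0.55). The summed signal was 2155 to 2175 in WT and 2417 to 2497 in KO, most of it from Apoa4 and Fabp2 (WT means 9.76 and 10.04). Vil1, Lct and Cdx2 were dim, with WT means of 6.26, 6.16 and 6.56, under the array medians of 6.66 to 6.67. The relation of this list to Cyp2c55 was not tested. Of 6 kidney markers 0 passed, also at an unadjusted p under 0.05, and Umod, which defines kidney tubule, read 6.03 and 5.99 in WT and 6.16 and 6.01 in KO. None of the markers of Kupffer (6), sinusoidal endothelial (6), stellate (6) or biliary cells (5) passed both thresholds, with 0, 1, 2 and 1 at an unadjusted p under 0.05.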

How the data were processed

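Liver RNA of 2 WT and 2 Tm7sf2-KO samples was measured on 1-colour arrays, and groups came from the sample labels. The authors deposited log2 expression, 1 value per probe set and array, after quantile normalization. Per the submitters' processing notes affy and limma were used. Not given in the sources used here are tool versions, background correction, probe summarisation and genome build. The authors also deposited a p-value adjusted for multiple testing and a log2 ratio of KO over WT for each probe set, and neither was used; gene names came from that table.

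After leaving out 64 control probe sets, KO was set against WT with a two-sided limma fit (limma 3.58.1, R 4.3.3) without covariates, on 2 residual and 7.3 prior degrees of freedom, with Benjamini-Hochberg adjustment over 45037 probe sets. The test was tested on simulated data whose spread was drawn from its own fit, which checks the code and not the spread of these arrays. A gene stood at its brightest probe set. Exact permutation of 4 arrays allows no p below 0.333 and was not used. Precision is limited by the number of arrays.

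Promoters, gene order and symbols came from RefSeq tables (GRCm38.p6), and upstream sequences were aligned in pairs with free end gaps (Biopython 1.88). The members and lists were chosen with earlier results of these data known. The text names all members, other named Cyp2c genes, up to 4 genes per list past both thresholds (or up to 2 with the smallest adjusted p where none passed), and the 3 genes nearest in pattern to the largest rise and fall. Alternatives were a second quantile normalization, centring on 18 hybridization controls, a variance trend, removal of dim or shared probe sets, averaging a gene's probe sets, no fold threshold, the replicate number as a block and leaving out each array.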

Additional observations from a re-analysis of the deposited data

How the results depend on the processing

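Centring on the hybridization controls shifted the median of all probe sets from 0.01 to -0.38 and gave 7152 probe sets past both thresholds (25 higher and 7127 lower) in place of 318, 18 in the pathway lists (4 higher and 14 lower) in place of 10 (8 higher and 2 lower), and 2 neighbours, both lower. The median over Cyp2c genes became -0.43, Cyp2c29 -0.28, Cyp2c44 -0.11, Ephx2 -0.16 and Pgrmc1 -0.29. Cyp2c50 (-0.59) and both Cyp2c70 probe sets (-0.59 and -0.86) then passed, and Cyp2c54 (0.26) did not. With the probe sets of a gene averaged, 7 list genes passed (5 higher and 2 lower), and Ahr (0.26), Ppargc1a (0.37) and Cyp7a1 (0.40) did not. Without the fold threshold 564 probe sets passed. Without the suffix-marked probe set the median over Cyp2c genes was -0.20, since Cyp2c44 dropped out.

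With 1 array left out, from 0 to 0 probe sets passed, both over all probe sets and among Cyp2c probe sets, Cyp2c genes and the pathway lists, while 3326 (without WT replicate 2) to 4217 (without Tm7sf2-KO replicate 2) had an unadjusted p under 0.05. The lone array was then assumed to vary like the other group. Cyp2c37 ran from -2.65 to -2.37, Cyp2c39 from 1.31 to 1.61, Cyp2c55 from -1.42 to -1.40 and Cyp2c38 from 0.91 to 0.96, and the median over Cyp2c genes from -0.057 to -0.0019. The direction of every Cyp2c probe set was kept in these fits.

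No sign of pairing by replicate number was seen over all probe sets (correlation of replicate differences -0.04), which cannot show that the arrays were unpaired. With the number as a block, 305 probe sets passed and 6 Cyp2c probe sets, as before, and Ahr lost its call. The second quantile normalization, the variance trend, the block and the removal of dim probe sets changed no Cyp2c call made with both thresholds. By the limma adjusted p-value alone, Cyp2c70 at 1440327_at did not pass with the block (0.0523). Cyp2c44 passed it with the variance trend (0.036).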
